A study of Bos taurus with 30 samples.

Results

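The bovine miR-33 family consists of bta-miR-33a and bta-miR-33b (miR-33a and miR-33b from here on), the mature microRNAs made from introns of the sterol regulatory element-binding factor genes. These 2 members were selected by name from the 1030 mature miRNAs listed in the data, of which 863 had a read in at least 1 library, and both were detected in all 30 libraries. Each library held the small RNA of the hypothalamic arcuate nucleus (ARC) of 1 Holstein-Friesian bull calf, the part of the hypothalamus that reads signals of energy status. From 2 to 12 weeks of age, 15 calves were on a high (HI) plane of nutrition, with 1.5 kg of milk replacer in 10 litres each day and concentrates offered without limit, and were meant to grow by 1.0 kg/day. The other 15 calves were on a moderate (MOD) plane, with 0.5 kg of milk replacer in 4 litres and 0.5 kg of concentrates each day, and were meant to grow by 0.5 kg/day. All calves were male, of 1 breed, and the tissue was a whole dissection holding many cell types, so that fewer cells of a type and less RNA per cell cannot be told apart. The comparison of HI with MOD asked whether diet in early life altered miRNA levels in the ARC.

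SREBF2 and SREBF1 encode transcription factors that switch on genes of cholesterol and fatty acid synthesis. The miRNAs in their introns share a seed, the bases that pair with a target, and are known to repress ABCA1, the transporter that loads cholesterol onto lipoproteins for export from the cell. Mammals such as cattle and humans carry both miRNAs, whereas mice carry only the one in Srebf2, and in the brain most cholesterol is made locally because plasma lipoproteins do not cross the blood-brain barrier. In the RefSeq gene table of the ARS-UCD2.0 assembly, the MIR33A precursor (gene 100313374, 69 bases) lies inside SREBF2 (gene 507102) and the MIR33B precursor (gene 100313036, 94 bases) inside SREBF1 (gene 539361), and each overlaps no other gene. That table gives no introns or exons and is of another assembly than the one the reads were counted on, so no coordinates are given. The mature miRNAs are close in sequence, and a read that fits both could be assigned to either, so the values of the pair are uncertain to that extent. Every value of both members was a whole number of reads in 30 of 30 libraries, within 0.1 read. Whole numbers do not show to which member a shared read was assigned. The worth of a single read was itself chosen so that most low values came out whole.

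Values are counts per 1000000 reads (CPM), scaled by the authors, and the number of reads behind each was worked out from what a single read is worth in its library. Libraries held between 6291376 and 21083250 reads counted on miRNAs, with a median of 8512614 in HI and 8811432 in MOD calves. They fell into 21 shallower libraries of at most 8988039 reads (12 HI, 9 MOD) and 9 deeper ones of at least 17193358 reads (3 HI, 6 MOD). A floor of 3 reads corresponded to between 0.138 and 0.558 CPM. MiR-33a rested on 89 to 972 reads per library and miR-33b on 15 to 140, with medians of 353.5 and 53.5. The neuronal list of 7 miRNAs, with miR-124a and miR-9-5p, was detected throughout, with a summed level of 17944 to 88539 CPM in HI and 24244 to 83371 CPM in MOD calves. Markers of pituitary and endocrine epithelium were also present, with the 9 calves of the highest scores (5 HI, 4 MOD) set apart from the other 21, and values with and without these calves are given below. The 9 calves with the lowest numbers in their animal codes (7 HI, 2 MOD), the HI calf A37824 among them, stood apart from the other 21 for many miRNAs. What the code numbers stand for is not stated, and the boundary after 9 calves was set with the values of these libraries known, so differences between these code classes are given as a description with no test.

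MiR-33a was the more abundant member in every calf. Its level over the 30 calves was 16.5 CPM at the lowest (A37824, HI), 37.5 CPM at the median and 47.2 CPM at the highest (A97854, MOD). MiR-33b was at 2.07 CPM at the lowest (A17855, HI), 5.60 CPM at the median and 8.26 CPM at the highest (A61973, MOD). The median levels ranked 265 and 366 from the top among the 476 miRNAs tested. Among these, the SREBF2 member was thus of middling and the SREBF1 member of low abundance. The filter for testing had left out scarcer miRNAs, since 863 had a read in at least 1 library. The CPM are not divided by length, since mature miRNAs are of similar length. Reads were not calibrated against known amounts of miRNA, so the levels of different miRNAs are compared only as CPM.

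The members differed in how far they varied. The coefficient of variation of the CPM of miR-33a over the 30 calves was 19.2%, of which counting alone gives 5.30%. For miR-33b it was 33.1%, against 14.1% from counting. Among miRNAs within 2-fold of its median level, 22 of 90 varied less than miR-33a and 58 of 87 varied less than miR-33b, where the median coefficients were 27.1% in both sets. MiR-33a was thus among the steadier miRNAs of its abundance, with a 2.86-fold range, and miR-33b spanned 3.99-fold.

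**Figure D1:**
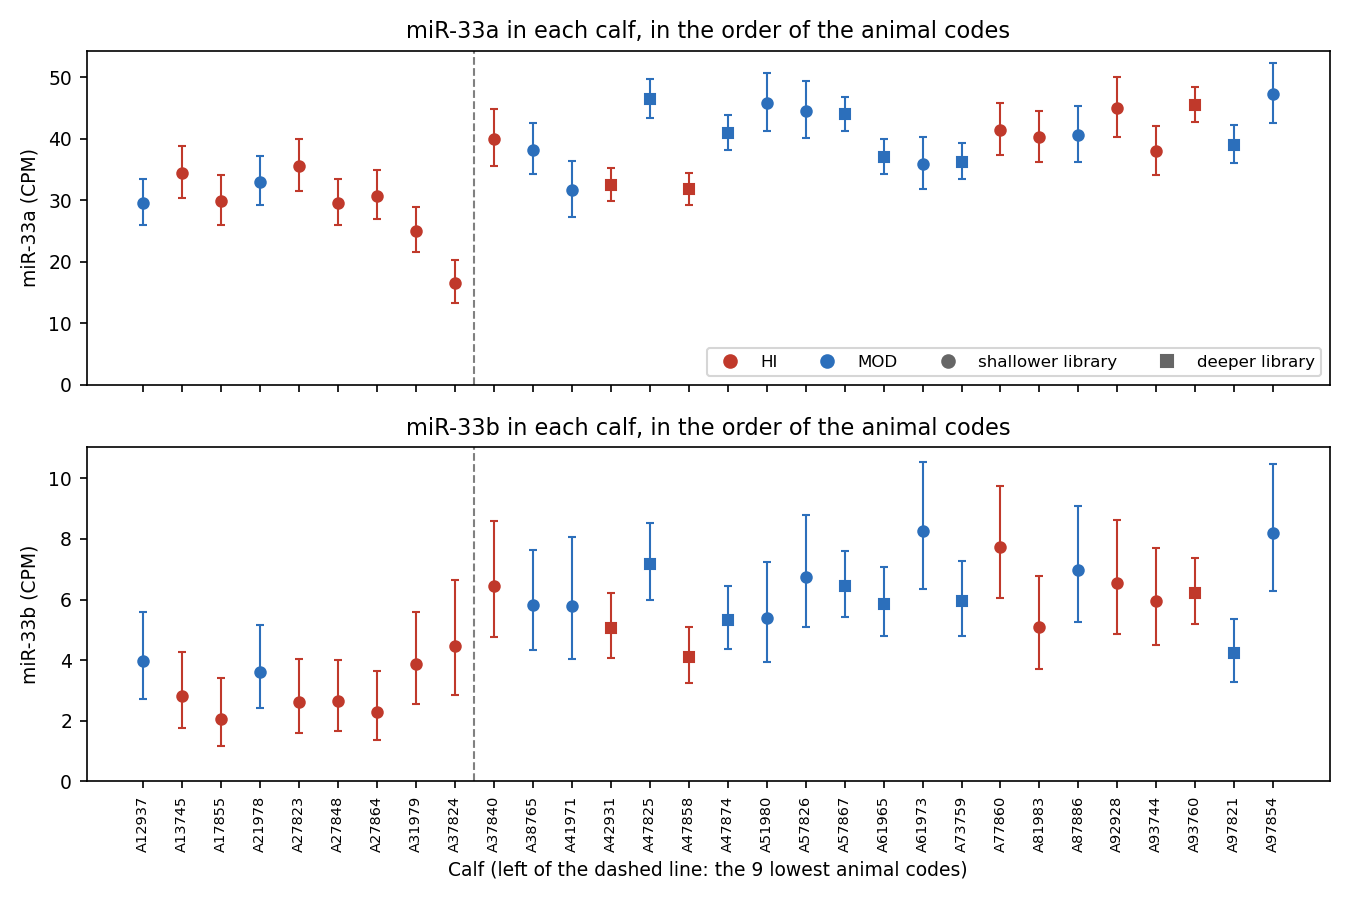
Level of miR-33a (top) and miR-33b (bottom) in CPM in each of the 30 calves, ordered by the number in the animal code, with 95% Poisson intervals that cover counting error only. Colour gives the diet and shape the depth class. Left of the dashed line, the 9 calves with the lowest codes lay between 16.5 and 35.5 CPM for miR-33a and between 2.07 and 4.46 CPM for miR-33b.

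Between the diets, both members were lower in HI calves, and neither passed the threshold of an adjusted p under 0.1 with a fold above 1.5. Differences are on the log2(CPM + 0.25) scale. MiR-33a was at 16.5, 34.4 and 45.5 CPM (lowest, median and highest) in the 15 HI calves. In the 15 MOD calves it was at 29.5, 39.0 and 47.2 CPM. The groups overlapped over most of their range, with 10 of 15 HI calves below the MOD median and 3 of 15 MOD calves below the HI median. The mean was 34.4 ± 7.74 CPM in HI and 39.3 ± 5.55 CPM in MOD calves (SD, n = 15 each), a log2 difference of -0.22 (SE 0.11, 95% interval -0.44 to 0.01). In limma over all 476 tested miRNAs the unadjusted p was 0.0564 and the Benjamini-Hochberg adjusted p was 0.912. Without A37824, the lowest calf, the log2 difference was -0.15.

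MiR-33b showed the larger difference of the pair. It was at 2.07, 4.46 and 7.75 CPM (lowest, median and highest) in HI calves and at 3.62, 5.85 and 8.26 CPM in MOD calves. Again the groups overlapped, with 10 of 15 HI calves below the MOD median and 3 of 15 MOD calves below the HI median, although the 5 lowest calves were all HI. The mean was 4.53 ± 1.80 CPM in HI and 5.98 ± 1.39 CPM in MOD calves (SD, n = 15 each), a fold of 0.731 or a log2 difference of -0.45 (SE 0.17, 95% interval -0.80 to -0.10). The unadjusted p from limma was 0.0126, the 6th smallest of 476, and the adjusted p was 0.912. Single-value permutation tests (two-sided, 100000 resamples) gave p = 0.0486 for miR-33a and p = 0.0152 for miR-33b, before any adjustment for the number of miRNAs.

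At that threshold, 0 of the 2 members were called, where 0% of all 476 miRNAs were. At an unadjusted p under 0.05, 1 of the 2 members was called, and it was lower in HI calves, where 4.41% of all miRNAs were called, 2.73% as lower and 1.68% as higher. Without any threshold both were lower in HI calves, as were 50.6% of all miRNAs. The count of 0 came from limma, with 21 miRNAs at an unadjusted p under 0.05, and edgeR's quasi-likelihood test on the recovered reads of 29 libraries also called 0, with 17 at that level. DESeq2 called 1, which was miR-2419-3p and not a member.

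The diets were unevenly spread over the animal codes, and the differences of both members shrank when the codes were taken into account. With the code class as a term in limma, the log2 difference of miR-33a was -0.07 (SE 0.09, 95% interval -0.26 to 0.12, unadjusted p = 0.445). That of miR-33b was -0.16 (SE 0.11, 95% interval -0.40 to 0.07, unadjusted p = 0.165), and both had an adjusted p of 0.999. Within the 9 lowest codes, 7 HI calves against 2 MOD calves differed by -0.15 for miR-33a (exact permutation p = 0.639) and by -0.37 for miR-33b (exact permutation p = 0.278). Within the other 21 calves, 8 HI against 13 MOD, the log2 differences were -0.05 (exact permutation p = 0.557) and -0.10 (exact permutation p = 0.414). Both members were thus lower in HI calves within each code class, with no p under 0.05 in these tests. A test of whether the diet difference itself differed between the code classes gave an adjusted p of 0.903 for miR-33a and 0.815 for miR-33b in limma. With only 2 MOD calves in the low class, that test could not show that the difference was the same in both. The class boundary was set with these values known, which limits every p-value that uses the code class.

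Depth separated the diets less. Within the 21 shallower libraries the log2 difference between diets was -0.21 for miR-33a (exact permutation p = 0.179) and -0.53 for miR-33b (exact permutation p = 0.0413). Within the 9 deeper libraries, 3 HI against 6 MOD, it was -0.16 (exact permutation p = 0.25) and -0.18 (exact permutation p = 0.357). All 9 calves with the lowest codes were among the shallower libraries, so the shallower libraries hold the code difference as well. Among the 21 other calves, miR-33a differed little between 9 deeper and 12 shallower libraries, with means of 39.3 and 40.7 CPM (exact permutation p = 0.492). MiR-33b was lower in the deeper of these libraries, at a mean of 5.60 against 6.58 CPM (log2 difference -0.23, exact permutation p = 0.0416, unadjusted), which is the opposite direction to the pooled depth difference of 0.21.

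Along the animal codes, the levels of both members stepped up after the 9th calf. MiR-33a was at 16.5, 29.8 and 35.5 CPM (lowest, median and highest) in the 9 calves with the lowest codes and at 31.6, 40.2 and 47.2 CPM in the other 21. Of the 9, 6 lay below every other calf, and 18 of the 21 lay above all of the 9. MiR-33b was at 2.07, 2.82 and 4.46 CPM in the 9 and at 4.10, 5.95 and 8.26 CPM in the 21, where 8 of the 9 lay below every other calf and 19 of the 21 above all of the 9. A37824 was the calf of the lowest codes with the most miR-33b and the least miR-33a. With diet in the model, miR-33a was 0.738-fold and miR-33b 0.549-fold in the lowest codes relative to the rest, against a median log2 difference of -0.04 over all 476 miRNAs. The drop of miR-33b was the 12th largest of the 476, and that of miR-33a the 70th.

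Taken alone, the code class accounted for 50.1% of the variance of the CPM of miR-33a and 64.6% of that of miR-33b. Diet taken alone accounted for 12.6% and 18.0%. These shares overlap, because the diets were unevenly spread over the codes. The code boundary was set with these values known, which favours its share, so the shares are not ranked against each other. Within code classes the coefficient of variation was 13.8% for miR-33a and 20.1% for miR-33b. Spearman's rho of miR-33a with code order was -0.45 among the 9 lowest codes and 0.34 among the rest. That of miR-33b was 0.17 and 0.25.

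The order of the mean levels over diet and code class was the same for both members. For miR-33a it ran from HI calves with the lowest codes (28.8 ± 6.41 CPM, n = 7) over MOD calves with the lowest codes (31.3 ± 2.50 CPM, n = 2) and the other HI calves (39.3 ± 5.09 CPM, n = 8) to the other MOD calves (40.6 ± 4.78 CPM, n = 13). For miR-33b the same order ran from 2.97 ± 0.870 over 3.79 ± 0.251 and 5.90 ± 1.12 to 6.32 ± 1.14 CPM. Between neighbours that differ only in diet, the permutation tests within code classes gave no p under 0.05 for either member. With only 2 MOD calves among the lowest codes, those tests could not show a lack of difference.

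Because miR-33a and miR-33b come from different host genes and share a seed, their joint level and their ratio were also computed. The sum of the pair was 38.9 ± 8.93 CPM in HI and 45.3 ± 6.40 CPM in MOD calves (SD, n = 15 each), a log2 difference of -0.24. A permutation test on the sum gave an unadjusted p of 0.0276. Within the 21 calves that exclude the lowest codes, the log2 difference of the sum was -0.06 (exact permutation p = 0.478). The members were chosen with results of these libraries known, which limits these p-values and all others given for the members. The sum was mostly miR-33a, which outnumbered miR-33b by at least 3.71-fold in each calf. The ratio of miR-33a to miR-33b was 3.71, 7.31 and 14.4 (lowest, median and highest) in HI calves and 4.34, 6.56 and 9.24 in MOD calves. The ratio was thus wider in HI calves at both ends, and its log2 difference of 0.26 did not pass 0.05 (permutation p = 0.127). Without A37824, whose ratio was the lowest, the difference was 0.34. That calf is singled out here by its own ratio, so no p is given for this value. Within the 21 calves that exclude the lowest codes it was 0.05 (exact permutation p = 0.638).

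The highest ratios belonged to HI calves with low codes. In the calves with the lowest codes the ratio was 3.71, 11.2 and 14.4 (lowest, median and highest), and in the other 21 it was 4.34, 6.48 and 9.24. The calves A13745, A17855, A27823, A27848 and A27864, all HI, had ratios of 12.2, 14.4, 13.6, 11.2 and 13.3, above every other calf. A31979 and A37824, also HI and of the lowest codes, had ratios of 6.46 and 3.71, and the MOD calves A12937 and A21978 had 7.42 and 9.13.

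Across the 30 calves, the members varied together, and most of this went with the code classes. Pearson's r of the log2 levels was 0.55 (permutation p = 0.00143) and Spearman's rho was 0.73 (permutation p = 1e-05, the smallest that 100000 resamples give). Without the 2 calves farthest from the median of miR-33a, r was 0.72. With the code class means removed, r was -0.07 (permutation p = 0.701) and rho 0.05. Without the 2 calves farthest from the median of miR-33a after that removal, r was 0.21 (permutation p = 0.283). Within the 21 other calves r was 0.47 (permutation p = 0.0323), and 0.34 without the 2 farthest calves. Within the 9 lowest codes r was -0.60 (exact permutation p = 0.064), and -0.27 without the 2 farthest calves (exact permutation p = 0.575). These belong to 11 such relations, of which the adjusted p of r was 0.00786 over all calves, 0.0608 within the other 21 and 0.101 within the 9. The members thus followed each other between the code classes, and within them no common direction was seen.

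**Figure D2:**
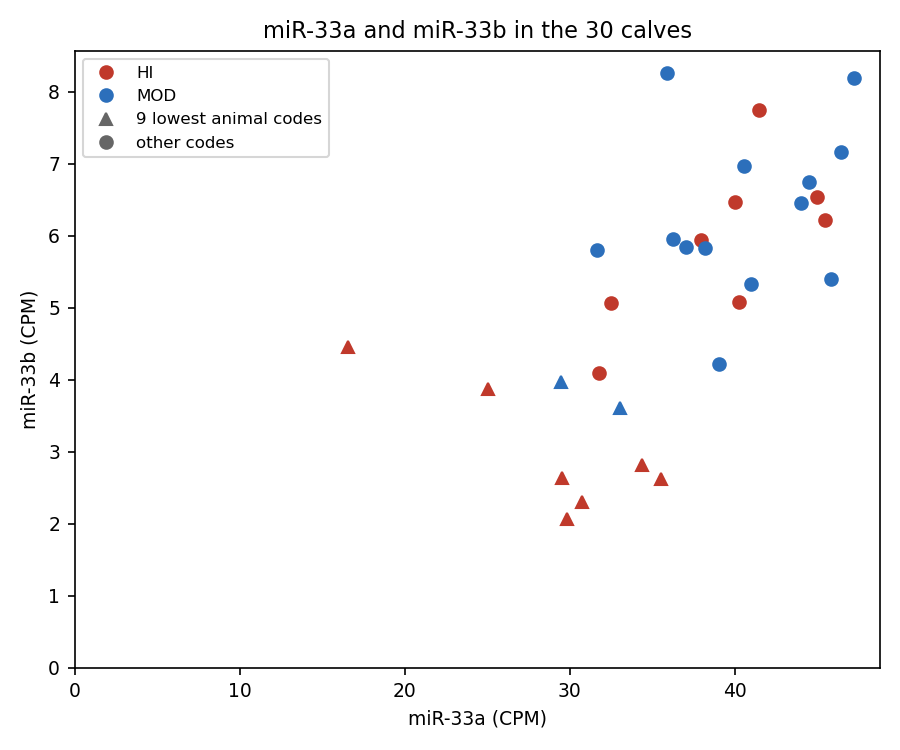
MiR-33b against miR-33a, both in CPM, for the 30 calves, with colour for diet and triangles for the 9 calves at the low end of the animal codes. The triangles hold the lowest values of both members, from 16.5 to 35.5 CPM and from 2.07 to 4.46 CPM, and r of the log2 levels was -0.60 among them (-0.27 without 2 calves) and 0.47 among the circles (0.34 without 2 calves).

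The levels were set against lists of miRNAs that mark the cell types a dissection of the ARC could hold, each list scored as the mean of its standardised log2 values. MiR-33a followed the neuronal list. Pearson's r was 0.75 (permutation p = 3e-05, adjusted over 18 relations 0.00054) and rho 0.64 (adjusted p = 0.00414), and r was 0.59 without the 2 calves with the most extreme scores. With the code class means removed, r was 0.67 (adjusted p = 0.00864) and rho 0.43 (adjusted p = 0.117). A37824 had the lowest neuronal score of the 30 calves, and without it r was 0.56 (permutation p = 0.00115). Without it and with the code class means removed, r was 0.46 (permutation p = 0.0103) and rho 0.22 (permutation p = 0.257). Of the 7 neuronal miRNAs, miR-137, miR-153 and miR-138 had rho with miR-33a of 0.70, 0.66 and 0.60, whereas miR-124a had 0.33, miR-128 0.25, miR-9-5p 0.06 and miR-129 -0.19.

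For miR-33b, r with the neuronal score was 0.32 (permutation p = 0.0827, adjusted p = 0.352) and rho 0.46 (adjusted p = 0.0932). Without the 2 calves with the most extreme scores r was 0.54 (permutation p = 0.00278), near the 0.59 of miR-33a. With all 30 calves and the code class means removed, r was -0.12 and rho -0.05, against 0.67 and 0.43 for miR-33a. The difference between the members in this relation was not tested.

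MiR-33a was also lower in calves with high levels of the pituitary and endocrine list, whose miRNAs, such as miR-375, miR-7 and miR-200a, are abundant in the gland that lies just below the ARC. Of the list's 10 miRNAs, 8 were tested, and miR-200b and miR-96 were too low. The summed level of the list ranged from 2325 to 100739 CPM in HI and from 2289 to 84373 CPM in MOD calves. MiR-33a had a mean of 31.9 CPM in the 9 calves of high score and 39.0 CPM in the other 21, a fold of 0.801 (permutation p = 0.00628, adjusted over 6 comparisons 0.0377), and without A37824, which had the highest score, a fold of 0.865 (permutation p = 0.0319). Within code classes the permutation p was 0.00785. Among the 9 calves of high score, r of miR-33a with the score was -0.55 (exact permutation p = 0.121, adjusted over 18 relations 0.352). Among the other 21 calves r was -0.22 (permutation p = 0.327, adjusted 0.471). MiR-33b had means of 4.80 and 5.45 CPM in the same calves (permutation p = 0.476). A calf rich in pituitary miRNAs was often poor in neuronal ones, with neuronal scores from -2.32 to 0.03 in the 9 calves and from -0.35 to 0.73 in the other 21, so the relations of miR-33a to the lists overlap. Within the 21 calves of low pituitary score, the log2 difference between diets was -0.12 for miR-33a (exact permutation p = 0.222) and -0.47 for miR-33b (exact permutation p = 0.0423). The part of cell composition in the levels of the members was not tested.

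**Figure D3:**
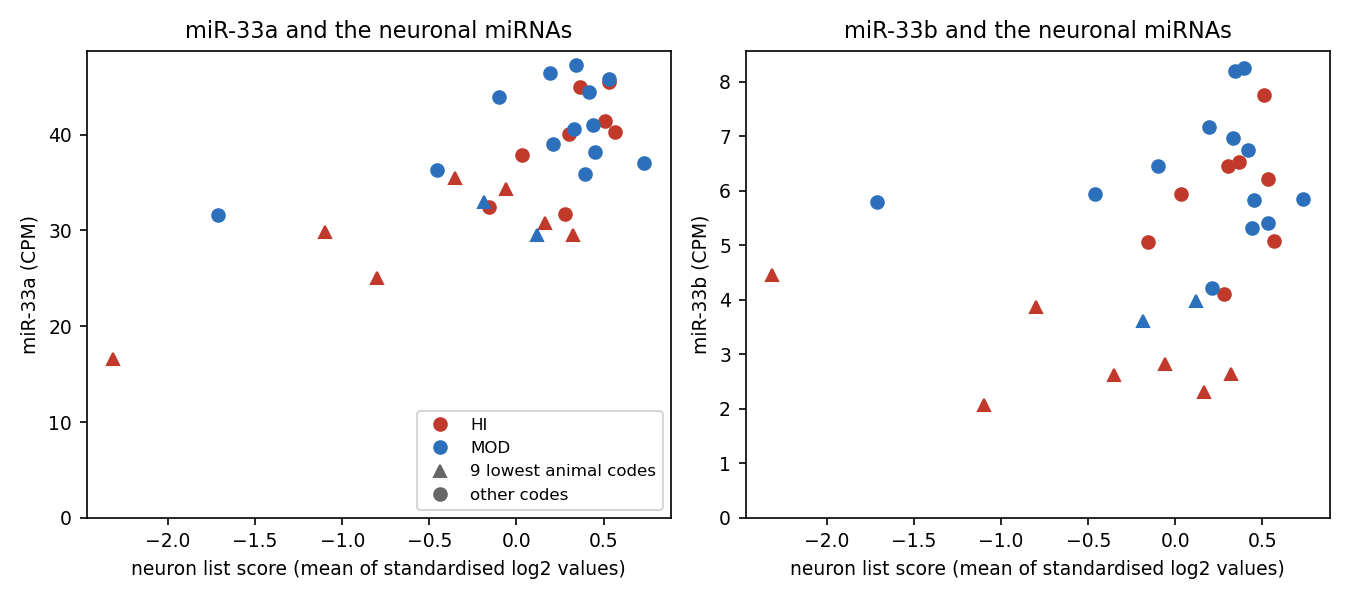
Level of miR-33a (left) and miR-33b (right) in CPM against the score of the neuronal miRNA list in each of the 30 calves, with colour for diet and triangles for the 9 calves with the lowest animal codes. MiR-33a was higher at higher scores (r of the log2 level = 0.75), with A37824 lowest in both at 16.5 CPM and a score of -2.32, and miR-33b had an r of 0.32. Without the 2 calves of the most extreme scores, r was 0.59 and 0.54.

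The other lists were oligodendrocytes, blood vessel wall, erythroid cells, leukocytes, choroid plexus and ependyma, and liver. For miR-33a, r with these scores lay between -0.30 (blood vessel wall) and 0.28 (oligodendrocytes). For miR-33b it lay between -0.24 (oligodendrocytes) and 0.33 (choroid plexus and ependyma), and none of these had an adjusted p under 0.1. With the code class means removed, r was 0.45 for miR-33a with oligodendrocytes (adjusted p = 0.0854) and 0.51 for miR-33b with choroid plexus and ependyma (adjusted p = 0.0329), while the adjusted p of rho was 0.1 and 0.117. The median diet difference (log2) was 0.12 for the 3 tested miRNAs of oligodendrocytes, -0.18 for the 4 of the vessel wall, 0.03 for the 3 of erythroid cells, -0.10 for the 5 of leukocytes, -0.39 for the 6 of choroid plexus and ependyma and -0.07 for the 3 of liver. For the 7 neuronal miRNAs it was -0.15 and for the 8 pituitary ones 0.64, and over all 476 it was -0.0022. In the fit with a term for code class, the medians were 0.01 for the neuronal miRNAs, 0.15 for the pituitary ones and -0.32 for those of the vessel wall. Of the 39 tested miRNAs of all cell type lists, 1 had an unadjusted p under 0.05 for diet, miR-145 of the vessel wall, where 4.41% of all miRNAs did. In the fit with the code class term it was 2 of the 39, miR-143 of the vessel wall being the other, where 2.1% of all miRNAs did. Without that term none of the 39 had an adjusted p under 0.1.

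By rank correlation over the 30 calves, the miRNAs most like miR-33a were miR-345-5p (rho 0.83), miR-188 (0.79), miR-544a (0.77), miR-326 (0.75) and miR-149-5p (0.75), and miR-33b came 8th of 475. After removal of the code class means, miR-345-5p remained near the top at 0.74, miR-188 was at 0.52 and miR-33b at 0.05, 225th of 475. Those most like miR-33b were miR-193a-3p (rho 0.82), miR-29c (0.80), miR-494 (0.76), miR-33a itself (0.73) and miR-188 (0.70). Once the code class means were removed, these were at 0.44, 0.39, 0.30, 0.05 and -0.04. All of them were lower in the calves with the lowest codes, by a log2 difference between -0.34 for miR-345-5p and -1.27 for miR-193a-3p. The correlations are a description over libraries that share these codes and depths.

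Other miRNAs with known links to cholesterol were read beside the pair. The first group holds 17 miRNAs that, like miR-33, are known to repress ABCA1, and all were tested. Of these 7 were lower and 10 higher in HI calves, with a median log2 difference of 0.02, where 50.6% of all miRNAs were lower. At an unadjusted p under 0.05 1 of the 17 was called, where 4.41% of all miRNAs were. That was miR-145, a smooth muscle miRNA, at a mean of 572 CPM in HI and 789 CPM in MOD calves (log2 difference -0.46, unadjusted p = 0.00797, adjusted p = 0.878). It was at -0.45 with the code class as a term, where miR-33b went from -0.45 to -0.16. MiR-101 differed by -0.09 (unadjusted p = 0.0993), and by -0.15 with that term (unadjusted p = 0.00117, adjusted p = 0.278). MiR-302a, at 1.02 and 1.38 CPM, differed by -0.38 (unadjusted p = 0.113). In the fit with that term, 3 of the 17 had an unadjusted p under 0.05, where 2.1% of all miRNAs did, and the third was miR-301b, at 0.17 (adjusted p = 0.999).

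The second group holds 14 miRNAs linked to sterol synthesis or lipoproteins, of which 12 were tested and miR-96 and miR-122 were too low. Of these 6 were lower and 6 higher in HI calves, with a median log2 difference of -0.04, and 3 were lower at an unadjusted p under 0.05, where 2.73% of all miRNAs were. None of the 12 (0 miRNAs) had an unadjusted p under 0.05 in limma with the code class as a term, where 2.1% of all miRNAs did. MiR-29a differed by -0.15 (unadjusted p = 0.0213), miR-29c by -0.19 (unadjusted p = 0.0267) and miR-342 by -0.27 (unadjusted p = 0.0292), each with an adjusted p of 0.912. As for the miR-33 members, these differences shrank with the code class as a term, to -0.08, -0.06 and -0.05, and miR-29c was also among the miRNAs most like miR-33b. The third group holds other miRNAs in introns of metabolic genes, miR-103 and miR-107 of the pantothenate kinase genes and miR-378 of PPARGC1B. They differed by 0.02, 0.02 and 0.12, with unadjusted p of 0.674, 0.816 and 0.0932. No miRNA of the 3 groups had an adjusted p under 0.1, and the shares at an unadjusted p under 0.05 rest on 1, 3 and 0 miRNAs.

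**Figure D4:**
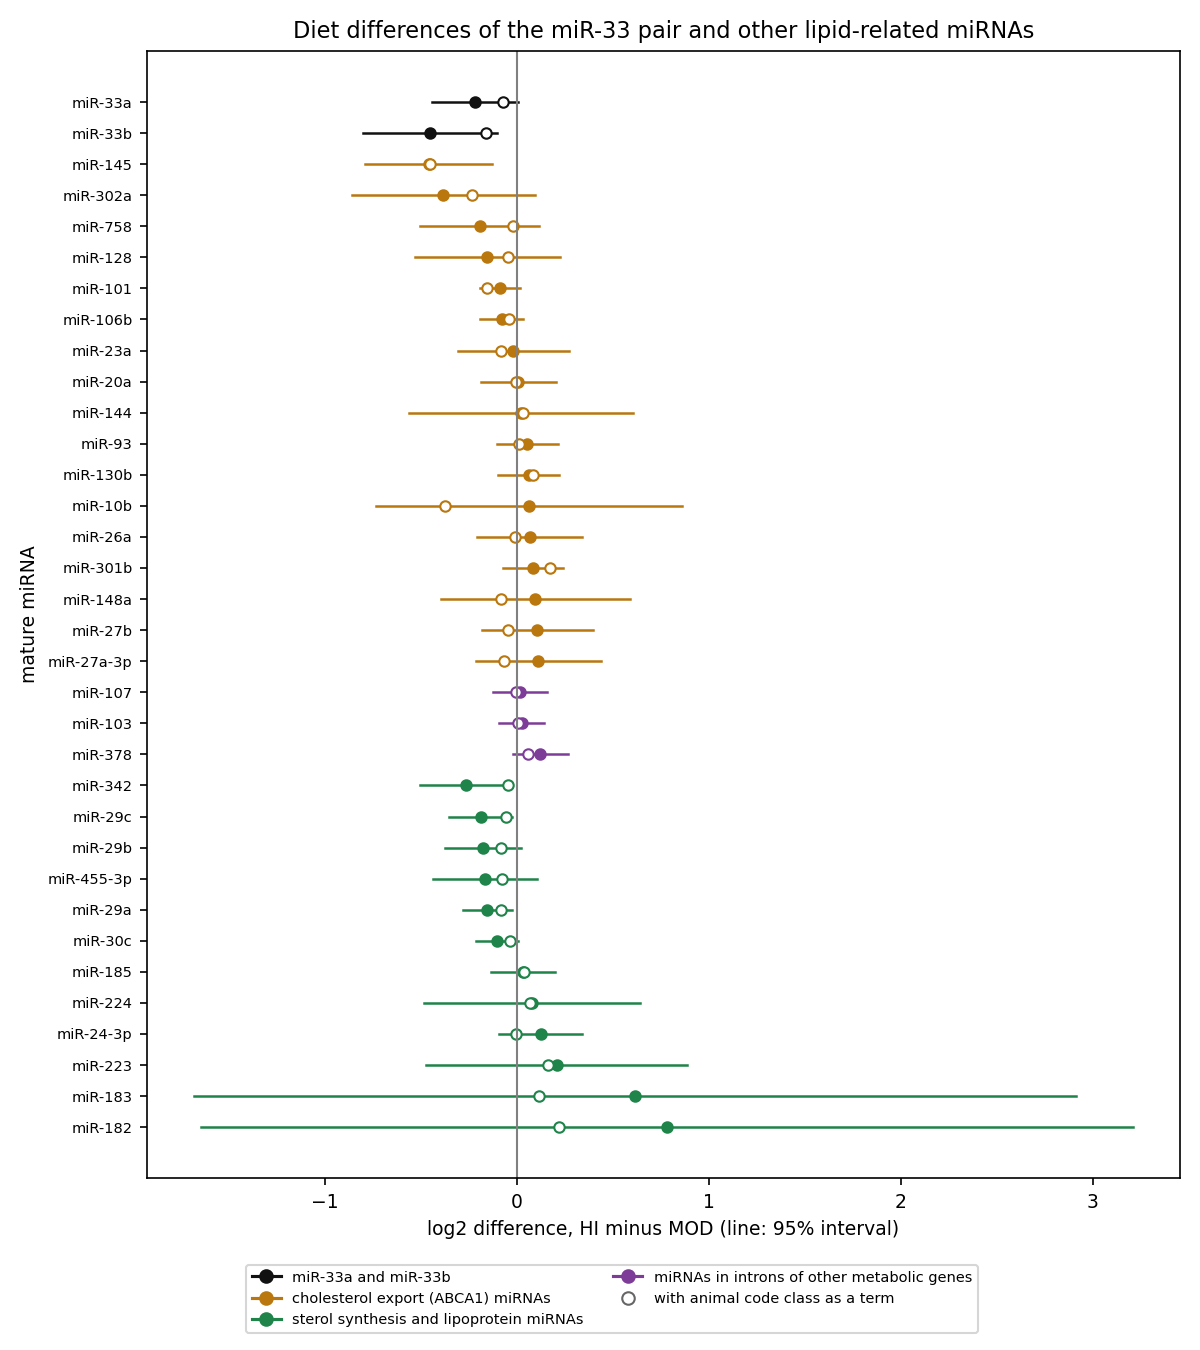
Log2 difference between HI and MOD calves with its 95% interval for miR-33a, miR-33b and the tested miRNAs of the 3 groups, from limma over 15 HI and 15 MOD calves. Filled circles are without and open circles with the animal code class as a term. MiR-33b moved from -0.45 to -0.16 and miR-33a from -0.22 to -0.07, and miR-145 stayed near -0.45.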

How the data were processed

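Small RNA of the ARC was sequenced for 30 calves, with 1 library and 1 animal per label. The authors trimmed reads with Cutadapt, kept lengths of a miRNA, removed other short bovine RNAs and used miRDeep2 with ARS-UCD1.2 to count the rest on the known miRNAs of cattle. The submitters' processing notes list FastQC 0.11.8, cutadapt 2.6, R 3.4 and edgeR 3.5. The labels name a stranded RNA kit for the libraries, whereas the study's methods name a small RNA kit. The signal values the authors deposited are decimals with a geometric mean total of 1000000 per library. They are treated as CPM over TMM-scaled library sizes, since TMM factors recomputed here differed by at most 0.586%. In each library, whole reads (within 0.1 read) made up 94.5% to 97.9% of the values under 200 reads. The worth of 1 read was less certain for A31979, so count tests were run on 29 libraries and again on 30. All 30 columns of values were matched to a calf, and 0 were left over.

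Because the deposited values are not counts, limma 3.58.1 (lmFit, eBayes with a trend) on log2(CPM + 0.25) with Benjamini-Hochberg adjustment was used over the 476 miRNAs with at least 1.16 CPM in at least 14 libraries. The thresholds were an adjusted p under 0.1 and a fold above 1.5, as in the study. Single values were compared by permutation (two-sided, 100000 resamples), or exactly by enumeration where a group had fewer than 10 calves. The main tests of diet within a class were also exact. Over both classes together, values were permuted within classes after removing class means. Intervals at 95% for levels and the floor of 3 reads cover counting error only. EdgeR 4.0.16 and DESeq2 1.42.0 on recovered reads, other scalings (DESeq2 size factors, upper quartile, library size only), pseudocounts, no filter, covariates and leaving out each calf were alternatives. The term for animal code class was planned, but with earlier results of these data known. The fit without the lowest codes and the correlation of the members with code class means removed were added after seeing the data. No calf had both diets, and the tests did not block calves by farm or sire. The study balanced its diet groups for age, bodyweight, farm of origin and sire, which were not at hand for each calf here. Software was R 4.3.3 and Python 3.11.15 with scipy 1.17.1, and the code was tested on simulated data.

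The miR-33 members, the pathway and cell type lists and the animal code boundary were chosen with earlier results of these data known. From each pathway list the 3 miRNAs with the smallest unadjusted p for diet were named, and for each member the 5 with the highest rho. Lists overlap: miR-128 is also neuronal, miR-145 is also of the vessel wall, miR-144 also erythroid, miR-223 also of leukocytes, and miR-96, miR-182 and miR-183 also pituitary. No mature sequence was at hand in the sources used here. The mRNA and protein data were not analysed here.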

Additional observations from a re-analysis of the deposited data

How the results depend on the processing

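Both members were lower in HI calves under each of 47 alternatives, and neither was called in any. The log2 difference ranged from -0.25 to -0.15 for miR-33a and from -0.51 to -0.38 for miR-33b when 1 calf was left out, with adjusted p from 0.674 to 0.999 and from 0.443 to 0.993. Over the 17 other alternatives it ranged from -0.26 (library size only) to -0.05 (without the lowest codes) and from -0.49 to -0.10, the same settings marking both ends, with adjusted p from 0.711 to 0.999 and from 0.52 to 0.999. The number of miRNAs called was 1 with DESeq2's Wald test on 29 or 30 libraries and 0 to 1 when 1 calf was left out (1 without A77860 or A97854), each time miR-2419-3p. The log2 difference of the sum was -0.29 with library size only, -0.20 with upper quartile scaling, -0.16 without the calves of high pituitary score, -0.057 without the lowest codes and -0.18 without A37824. In that order, the permutation p of the sum was 0.108, 0.0861, 0.136, 0.478 and 0.0549, against 0.0276 in the main test. The difference of the sum ranged from -0.27 to -0.18 when 1 calf was left out. The log2 ratio was 0.39 without the calves of high pituitary score (permutation p = 0.0394) and ranged from 0.20 to 0.34 when 1 calf was left out. Pearson's r between the members was -0.073 with the code class means removed (0.21 without the 2 farthest calves) and 0.52 to 0.69 when 1 calf was left out. The causes of these shifts were not tested. The depth limits miR-33b most, at 15 to 140 reads per library. No paired analysis was possible because no calf received both diets and the labels give no replicate numbers.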
